A study of Drosophila melanogaster with 34 samples.

Results

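DM412 and TABOR are retrotransposons of Drosophila, and DM412B is a second, short entry for a DM412 sequence. They were followed through every measurement of a study of transposon silencing, and were chosen by name as the rows DM412, DM412B and TABOR, 3 of the 129 transposon consensus sequences in each of 11 tables. A consensus is 1 sequence that stands for all genomic copies of an element, so it has no single chromosome position. The lengths recovered from the deposited values were 6958 bp for DM412, 6842 bp for TABOR and only 571 bp for DM412B. The sources used here do not say which segment DM412B covers or how reads that match both DM412 and DM412B were assigned, so these values are not independent and the split between the entries is uncertain.

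Retrotransposons with long terminal repeats copy themselves through an RNA that is transcribed from the repeat at one end and reverse transcribed into new DNA. DM412 and TABOR belong to the mdg1-type branch of the gypsy-like elements, and DM412 is known for its transcription in the somatic gonad of the Drosophila embryo. In somatic cells of the ovary such elements are held silent by piRNAs, small RNAs that guide the nuclear protein Piwi to nascent transcripts. Silencing then involves trimethylation of histone H3 at lysine 9 (H3K9me3), the protein HP1a that binds this mark, the linker histone H1, which packs nucleosomes, and Maelstrom (Mael), a factor needed for transcriptional repression downstream of Piwi.

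All 34 samples came from OSC, a Drosophila cell line kept in culture at 26 degrees that derives from somatic cells of the ovary, and every sample received an siRNA. In the control it targeted EGFP, and in the other groups Piwi (Piwi-KD), H1 (H1-KD), HP1a (HP1a-KD) or Mael (Mael-KD). Poly(A)+ RNA was read in control, Piwi-KD and H1-KD, small RNA bound to Piwi in control and H1-KD, and accessibility by ATAC-seq in all 5 conditions (10 samples, for which 5 columns were deposited). ChIP-seq gave H3K9me3 and HP1a in control, Piwi-KD and H1-KD, and H1 in 3 controls and in Piwi-KD, Mael-KD and HP1a-KD, with 7 input libraries of unselected chromatin DNA. RNA of the knocked-down genes was not analysed here, so the depth of each knockdown is unknown.

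Read totals were 20625614 to 25544579 for RNA, 6973985 to 7397276 for small RNA, 3381967 to 5674137 for ATAC, 2170354 to 4261323 over the ChIP libraries and 1560307 to 4266312 for input. There was 1 value per condition except for 3 controls of H1 ChIP and of input, so differences elsewhere have no replicate check, and 95% intervals cover counting error only. RNA, ATAC, ChIP and input values are in RPKM (reads scaled to consensus length and to the library total), and small RNA in RPM (scaled to the library total alone). A log2 change is taken after a pseudocount, which understates changes of low values. After the 25% of transposons with the lowest mean were left out, 96 of 129 were compared in each measurement, and all 3 elements passed that filter in all 6 of them.

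DM412 was the most abundant of the 3 elements in DNA. Its input stood at 213, 256 and 260.3 RPKM in the 3 controls, at 227 in Piwi-KD, 220.4 in H1-KD, 262 in Mael-KD and 279 in HP1a-KD. The 3 libraries numbered 1 held the lowest values, and the libraries numbered 2 and 3 lay above all of them, controls included. TABOR had 97.1, 107 and 104 RPKM in the controls and 97.1 to 113 over the 7 libraries. DM412B had 31.7, 25.9 and 29.6 RPKM in the controls and 25.9 to 38.2 over the 7 libraries, from 29 to 76 reads. The control means were 243 ± 26.0 for DM412, 103 ± 5.27 for TABOR and 29.1 ± 2.91 RPKM for DM412B (SD, n = 3). Within each library DM412 stood at 2.20 to 2.50 times TABOR, a ratio that does not depend on the library total.

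In control cells H3K9me3 was above input at all 3 elements, and beyond counting error above the median transposon at DM412 and TABOR. H3K9me3 over input was 3.39 at DM412, 4.22 at TABOR and 3.02 at DM412B, against 2.73 at the median transposon. The DM412B interval, 2.26 to 4.03, held that median. TABOR ranked 9th of 96 by this ratio, DM412 28th and DM412B 44th. HP1a over input was 2.19 at TABOR, above the transposon median of 1.81, and 1.61 at DM412 and 1.29 at DM412B, below it. The DM412B interval, 0.921 to 1.82, held both 1 and that median. RNA stood at 17.8 RPKM for TABOR, rank 24 of 129, at 8.67 RPKM for DM412, rank 43, and at 0.789 RPKM, or 11 reads, for DM412B, rank 85, where the median transposon had 2.44 RPKM. Relative to the input of control 1, RNA was 0.0407 for DM412 and 0.183 for TABOR, against 0.0530 for the median of 83 transposons kept in both measurements.

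Piwi-bound small RNA matched DM412 in quantity. In the control it reached 29916 RPM, the second highest value of the 129 entries and 8.51% of all small RNA reads assigned to them. TABOR had 8227 RPM and DM412B 417 RPM, ranks 18 and 43. Per kilobase of consensus DM412 held 4299 RPM, TABOR 1203 and DM412B 731. The order DM412, TABOR, DM412B thus held per length as well, with gaps far beyond counting error.

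How far these elements depend on Piwi for repression was asked by setting RNA of Piwi-KD beside that of the control, and all 3 stood at far higher RNA without Piwi. DM412 had 8.67 RPKM in the control and 749 in Piwi-KD, an 86.4-fold higher level (interval 82.1 to 91.1). TABOR had 17.8 and 523 RPKM, 29.4-fold higher (28.3 to 30.5). DM412B had 0.789 and 17.9 RPKM, 22.7-fold higher (12.4 to 46.2, from 11 and 211 reads). The 3 elements took ranks 3, 8 and 10 of 96 by log2 change, at 6.35, 4.83 and 3.78 against a median transposon of 0.11. All 3 were thus past 2-fold higher, as were 23 of the 96 transposons (24.0%), and 3 of 96 (3.12%) were past 2-fold lower. In bulk RNA, more RNA per cell and more cells with RNA cannot be told apart. All transposons together made up 14.9% of the RNA library in the control, 25.9% in Piwi-KD and 26.9% in H1-KD. In Piwi-KD, DM412 RNA made up 0.521% of the library and 2.01% of transposon RNA, up from 0.00603% and 0.0405% in the control.

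H1-KD was set against the same control RNA to ask what the linker histone contributes, and here TABOR and DM412 parted. TABOR stood at 155 RPKM in H1-KD, 8.68-fold above the control (8.36 to 9.02), and ranked 11 of 96. DM412 stood at 27.6 RPKM, 3.18-fold above (3.00 to 3.38), and ranked 36. DM412B stood at 1.78 RPKM, 2.26-fold above (1.08 to 5.06, from 26 reads). Counts past 2-fold use the log2 change after the pseudocount, which was 0.80 for DM412B, so it was not counted. Most transposons were higher in H1-KD, with 56 of 96 past 2-fold (58.3%) and a median log2 change of 1.19. The 2 of 3 elements past 2-fold, DM412 and TABOR, are thus near the background share. Relative to that median TABOR was at 1.89, DM412 at 0.42 and DM412B at -0.39.

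Between the knockdowns, DM412 RNA was 27.2 times as high in Piwi-KD as in H1-KD (interval 26.4 to 27.9), and TABOR RNA 3.38 times (3.33 to 3.43). All 3 elements were past 2-fold lower in H1-KD than in Piwi-KD, as were 12 of 96 transposons (12.5%). DM412 over TABOR, the ratio of their RNA within 1 library, was 0.487 in control cells, 1.43 after Piwi-KD and 0.178 after H1-KD. The element with more RNA was TABOR in the control and in H1-KD, and DM412 in Piwi-KD.

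**Figure D1:**
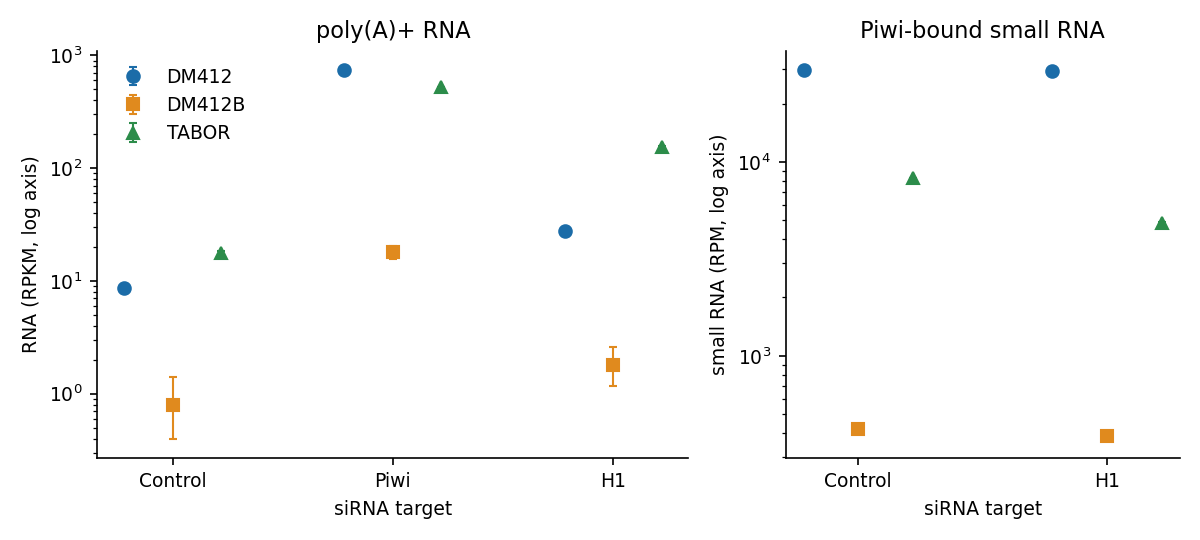
Poly(A)+ RNA in RPKM (left) and Piwi-bound small RNA in RPM (right), both on log axes, for DM412, DM412B and TABOR by siRNA target, 1 library per condition with 95% Poisson counting intervals that are mostly smaller than the symbols. DM412 stands at 8.67, 749 and 27.6 RPKM and TABOR at 17.8, 523 and 155 RPKM, while TABOR small RNA is lower in H1-KD, at 4819 against 8227 RPM.

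Small RNA bound to Piwi was lower in H1-KD for TABOR and little different for DM412. TABOR had 8227 RPM in the control and 4819 in H1-KD, a ratio of 0.586 (interval 0.578 to 0.594). That log2 change of -0.77 was the lowest of the 96 transposons, whose median was 0.27. The mdg1-type element STALKER3 and GYPSY3 were close to it, both at -0.74. DM412 had 29916 and 29573 RPM, a ratio of 0.989 (0.983 to 0.995). DM412B had 417 and 385 RPM, a ratio of 0.923 (0.876 to 0.972). None of the 3 passed 2-fold, and neither did any transposon in the lower direction (0%), while 32 of 96 were past 2-fold higher (33.3%). The small RNA of DM412 over that of TABOR went from 3.64 in the control to 6.14 in H1-KD. In H1-KD TABOR thus had 8.68-fold more RNA beside 0.586 times the small RNA of the control, each from 1 pair of libraries; whether the values move together in repeat libraries was not tested.

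ATAC-seq reads out the access of a transposase to DNA, and the elements past 1.5-fold above the control were DM412 and DM412B in Piwi-KD, TABOR in H1-KD, all 3 in HP1a-KD and none in Mael-KD. DM412 stood at 148 RPKM in control cells, 241 with Piwi-KD, 163 with H1-KD, 189 with Mael-KD and 251 with HP1a-KD. TABOR stood at 70.4, 93.2, 112, 89.2 and 151 RPKM in the same order. DM412 was thus close to its highest value in both Piwi-KD and HP1a-KD, whereas TABOR was highest in HP1a-KD and second highest in H1-KD. DM412B stood at 101 RPKM in control cells, 226 with Piwi-KD, 114 with H1-KD, 139 with Mael-KD and 228 with HP1a-KD, from 196 to 732 reads.

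In Piwi-KD the ratio to control was 1.62 for DM412 (interval 1.56 to 1.69), 2.23 for DM412B (1.90 to 2.62) and 1.32 for TABOR (1.25 to 1.40). DM412 and DM412B were past 1.5-fold, as were 11 of 96 transposons (11.5%). All 3 were among the 19 of 96 transposons above the control, while 77 lay below it. With a median transposon at -0.32 on the log2 scale, the 3 stood 0.998 (DM412), 1.43 (DM412B) and 0.70 (TABOR) above that median. Transposons as a whole took 11.2% of the ATAC library in the control and 25.6% in Piwi-KD; the part of this shift in the values was not tested. In H1-KD TABOR was past 1.5-fold at 1.59 (1.495 to 1.68), where 12 of 96 were (12.5%). DM412 was at 1.10 (1.05 to 1.15) and DM412B at 1.12, whose interval of 0.934 to 1.34 held 1.

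In HP1a-KD all 3 were past 1.5-fold, at 1.69 for DM412 (1.62 to 1.76), 2.25 for DM412B (1.91 to 2.65) and 2.15 for TABOR (2.03 to 2.27). There 30 of 96 transposons were past 1.5-fold above control (31.2%). Relative to the median transposon DM412 was at 0.52 on the log2 scale and no longer past 1.5-fold. In Mael-KD none of the 3 passed 1.5-fold, at 1.28 for DM412 (1.22 to 1.33), 1.37 for DM412B (1.14 to 1.64) and 1.27 for TABOR (1.19 to 1.35), where 8 of 96 did (8.33%). All 3 were still among the 25 of 96 transposons above the control in Mael-KD, while 71 lay below it. With a median transposon at -0.23 on the log2 scale, DM412 stood 0.57, DM412B 0.66 and TABOR 0.55 above that median. Set directly against Piwi-KD, HP1a-KD was 1.62 times as high at TABOR (1.55 to 1.69) and 1.04 times at DM412 (1.01 to 1.07). In that contrast 34 of 96 transposons were past 1.5-fold higher (35.4%), and TABOR ranked 27. Mael-KD against Piwi-KD was 0.786 at DM412 (0.760 to 0.813), 0.615 at DM412B (0.538 to 0.702) and 0.957 at TABOR (0.909 to 1.01), and DM412B was past 1.5-fold lower, as were 7 of 96 transposons (7.29%). H1-KD against Piwi-KD was 0.677 at DM412 (0.655 to 0.700), 0.503 at DM412B (0.440 to 0.574) and 1.198 at TABOR (1.14 to 1.25). DM412B was the 1 of the 3 past 1.5-fold there, among 9 of 96 transposons lower (9.38%).

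**Figure D2:**
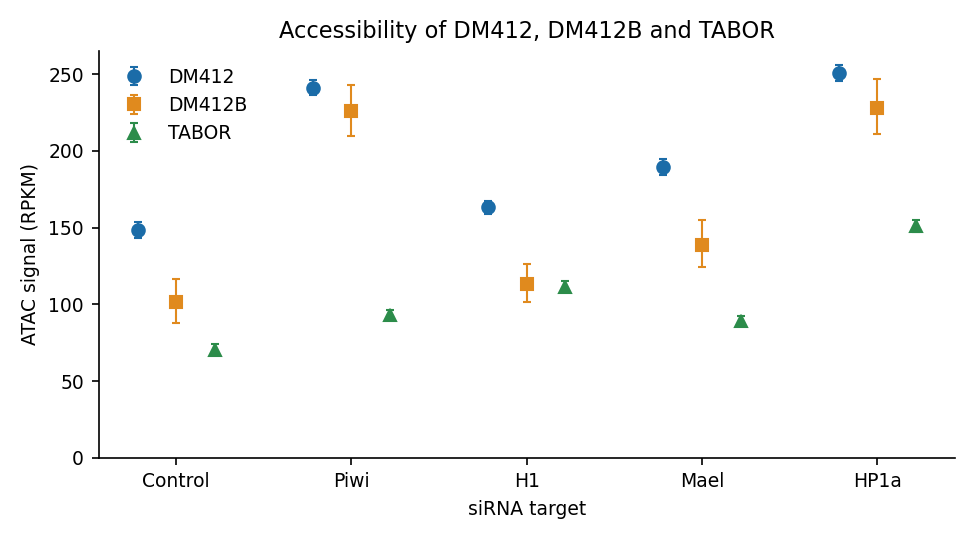
ATAC signal in RPKM on a linear axis from 0 for the 3 elements by siRNA target, 1 deposited value per condition with 95% Poisson counting intervals. DM412 and DM412B reach similar heights in Piwi-KD (241 and 226) and HP1a-KD (251 and 228), while TABOR goes from 70.4 in the control to 151 in HP1a-KD.

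The short DM412B entry had a far higher ATAC signal for its DNA than the long entries. Over the input of control 1, control ATAC was 3.20 at DM412B, against 0.696 at DM412, 0.725 at TABOR and 1.03 at the median of 88 transposons. DM412B ranked 6th of these 88, DM412 68th and TABOR 65th. With the inputs of controls 2 and 3 the DM412B ratio was 3.92 and 3.43. In Piwi-KD the ratio was 7.99 at DM412B, 1.06 at DM412 and 0.932 at TABOR. DM412 over DM412B, compared per length within a library, was 6.73 to 9.87 in input but 1.46 in control ATAC and 1.07 in Piwi-KD ATAC.

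H3K9me3 was compared between Piwi-KD and control to ask where the mark depends on Piwi, and it was lower at DM412 and DM412B. DM412 stood at 3.39 over input in the control and 1.46 in Piwi-KD, a ratio of 0.432 (interval 0.411 to 0.454). DM412B stood at 3.02 and 1.198, a ratio of 0.397 (0.244 to 0.647, from 132 and 42 ChIP reads). TABOR stood at 4.22 and 3.54, a ratio of 0.840 (0.787 to 0.896). DM412 and DM412B were past 1.5-fold lower, as were 13 of 96 transposons (13.5%), and ranked 5th and 8th from the lowest log2 change. Against a median transposon at 0.32, DM412 lay at -1.49, DM412B at -1.38 and TABOR at -0.56.

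In H1-KD no element passed 1.5-fold in H3K9me3. The ratio to control was 0.713 for DM412 (0.680 to 0.748), 0.762 for TABOR (0.711 to 0.816) and 0.764 for DM412B (0.486 to 1.202). The DM412B interval held 1, and 6 of 96 transposons were past 1.5-fold lower (6.25%). By log2 change DM412 ranked 8th, TABOR 11th and DM412B 14th from the lowest of 96, whose median was -0.006. Over input DM412 stood at 2.42, DM412B at 2.30 and TABOR at 3.21 in H1-KD, so that the gap between DM412 and TABOR was smaller than in Piwi-KD. Directly compared, H3K9me3 in H1-KD was 1.65 times that of Piwi-KD at DM412 (1.57 to 1.74) and 0.907 times at TABOR (0.846 to 0.972). DM412 and DM412B were past 1.5-fold higher in that contrast, as were 9 of 96 transposons (9.38%).

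HP1a, the reader of the mark, differed less as a ratio to control. It also stood closer to input in control cells than H3K9me3, which was 3.39 over input at DM412. At DM412 it stood at 1.61 over input in control cells, 1.12 with Piwi-KD and 1.52 with H1-KD. At TABOR it stood at 2.19, 2.01 and 2.16, and at DM412B at 1.29, 1.001 and 1.35. The ratio of Piwi-KD to control was 0.692 for DM412 (0.657 to 0.730) and 0.917 for TABOR (0.854 to 0.984), and the interval for DM412B, 0.460 to 1.30, held 1. No element passed 1.5-fold lower in Piwi-KD, where 6 of 96 did (6.25%), or in H1-KD, where 2 did (2.08%). In Piwi-KD DM412 still ranked 8th from the lowest log2 change of the 96. In H1-KD the intervals of TABOR (0.915 to 1.06) and DM412B (0.637 to 1.71) held 1, and DM412 was at 0.943 (0.896 to 0.992). Against Piwi-KD, HP1a in H1-KD was 1.36 times as high at DM412 (1.29 to 1.44), which did not reach 1.5-fold, as 3 of 96 transposons did (3.12%).

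**Figure D3:**
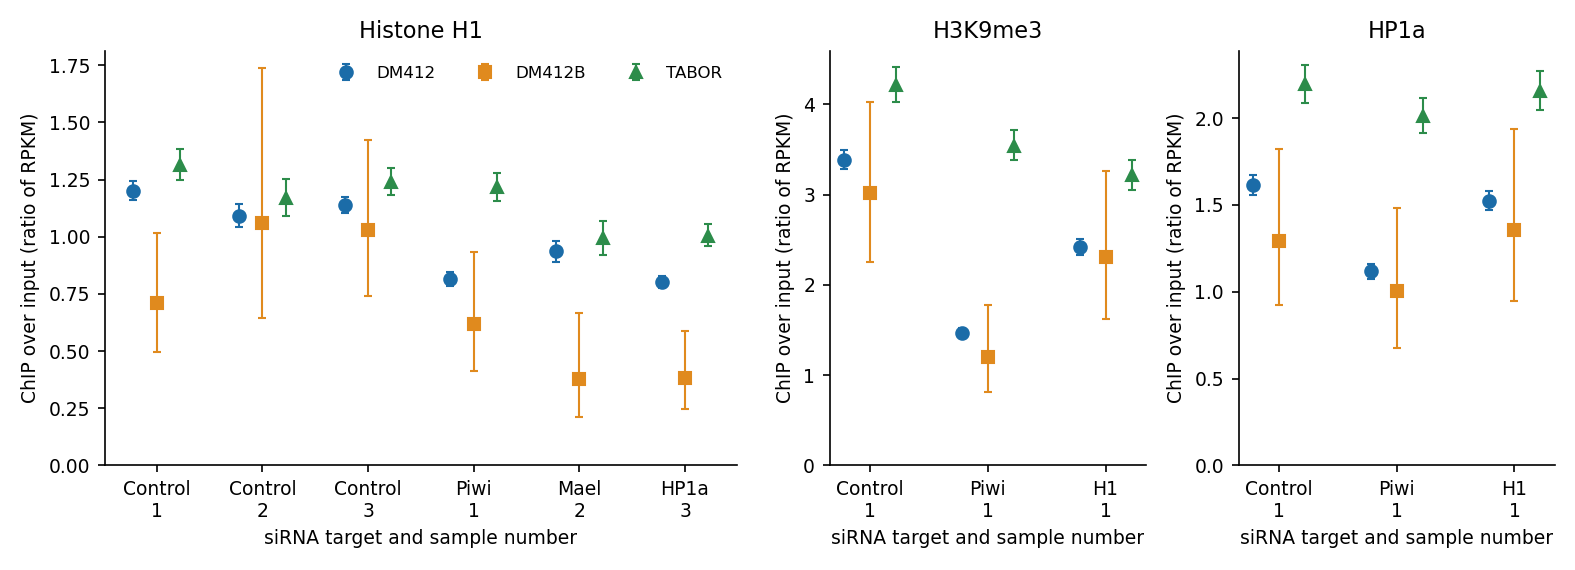
Ratio of ChIP to input RPKM for histone H1 (left, 6 libraries), H3K9me3 (middle, 3) and HP1a (right, 3) at the 3 elements, by siRNA target and sample number, on linear axes from 0 with 95% counting intervals. DM412 H3K9me3 goes from 3.39 to 1.46 in Piwi-KD while TABOR goes from 4.22 to 3.54, and the wide intervals of DM412B come from 18 to 132 ChIP reads.

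Histone H1 was measured in 3 controls, which allowed a test. H1 over input at DM412 was 1.201, 1.09 and 1.14 in the controls, 0.815 in Piwi-KD, 0.935 in Mael-KD and 0.802 in HP1a-KD. All 3 knockdown values lay below all 3 controls. TABOR had 1.31, 1.17 and 1.24 in the controls, 1.22 in Piwi-KD, 0.993 in Mael-KD and 1.01 in HP1a-KD. The Mael-KD and HP1a-KD values lay below the controls of TABOR and the Piwi-KD value among them. DM412B had 0.709, 1.06 and 1.03 in the controls, 0.620 in Piwi-KD, 0.376 in Mael-KD and 0.381 in HP1a-KD, all below its controls. These DM412B ratios rest on 52, 34 and 74 ChIP reads in the controls and 37, 18 and 28 in the knockdowns. Most transposons were also below the mean of the controls in Mael-KD (75 of 96) and HP1a-KD (80 of 96), but not in Piwi-KD (24 of 96). Relative to the median log2 change of the 96, DM412 was at -0.18 in Mael-KD and -0.36 in HP1a-KD. TABOR was at -0.21 and -0.16.

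A limma model over 96 transposons compared each knockdown with the mean of the 3 controls and assumed that each lone knockdown library varies like the controls. DM412B was lower in Mael-KD by 1.09 on the log2 scale (limma, SE 0.19, adjusted p = 6.4e-06), the 1 transposon called of 96 (1.04%). It was lower in HP1a-KD by 1.03 (limma, adjusted p = 2.9e-05), where 4 of 96 were called (4.17%). At 1.5-fold, DM412B was lower in Mael-KD, where 1.04% of transposons were, and in HP1a-KD, where 3.12% were, and none of the 3 passed in Piwi-KD (3.12% lower). Both limma calls were lost when each library was centred on its median transposon (-0.98 and -0.85, limma adjusted p = 0.342 and 0.204) and when the division by input was left out (-0.75 and -0.94, limma adjusted p = 0.808 and 0.233), and the Mael-KD call also without pseudocount (-1.29, 0.0543). DM412B was past 1.5-fold lower in each of these. In the fit as reported the variance was pooled fully over the 96 transposons, so the limma standard error was the same for each. Neither it nor the p-values from that fit measure the spread of DM412B itself. The SD of the DM412B controls, 0.24 on the log2 scale, was larger than that of DM412 (0.07) or TABOR (0.09). Against the control of the same number, H1 over input at DM412B was 0.355 times as high in Mael-KD (counting interval 0.167 to 0.757). In HP1a-KD it was 0.371 times as high (0.215 to 0.638).

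DM412 was not called in any knockdown as deposited. Its log2 change was -0.47 in Piwi-KD (limma adjusted p = 0.266), -0.50 in HP1a-KD (0.167) and -0.29 in Mael-KD (0.864), with the knockdown below every control each time. In Piwi-KD 5 of 96 transposons were called (5.21%). When libraries were centred on their median transposon, DM412 passed in Piwi-KD at -0.63 (limma adjusted p = 0.0128), where 6 of 96 were called (6.25%). Without control 1, DM412 was at -0.43 in Piwi-KD. TABOR stood at -0.02 in Piwi-KD (limma adjusted p = 0.966), -0.31 in Mael-KD (0.864) and -0.30 in HP1a-KD (0.521). DM412B in Piwi-KD was at -0.41 (limma adjusted p = 0.427), and at -0.54 without control 1. Control 1 shares its sample number with the Piwi-KD library, and against it alone DM412B was at -0.13, DM412 at -0.55 and TABOR at -0.11. As ratios without pseudocount, DM412 was at 0.679 of control 1 (interval 0.645 to 0.714) and TABOR at 0.925 (0.860 to 0.995). H1 over input of the median transposon was 1.30 in control 1 and 1.34 in Piwi-KD, against 1.14 in control 2 and 1.18 in control 3. In Mael-KD it was 1.11 and in HP1a-KD 1.05, so the median transposon also lay below every control there.

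Because library totals cancel in it, the ratio of DM412 to TABOR within a library sets the elements against each other most directly. For H1 over input it was 0.913, 0.934 and 0.916 in the 3 controls, 0.670 in Piwi-KD, 0.942 in Mael-KD and 0.798 in HP1a-KD. The Piwi-KD and HP1a-KD values lay below all controls, whose range was narrow, and the Mael-KD value lay just above them. With 3 controls against 1 library the smallest p of a one-sided exact permutation test is 0.25. For H3K9me3 over input the ratio went from 0.803 in the control to 0.413 in Piwi-KD, a change of 0.515 (interval 0.474 to 0.558), and to 0.752 in H1-KD (change 0.936, 0.862 to 1.02).

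For HP1a over input DM412 over TABOR went from 0.736 to 0.555 in Piwi-KD (change 0.755, 0.691 to 0.824) and to 0.706 in H1-KD (change 0.960, 0.879 to 1.05). In ATAC it was 2.11 in control cells, 2.59 with Piwi-KD, 2.12 with Mael-KD, 1.66 with HP1a-KD and 1.46 with H1-KD. The ATAC change was 1.23 for Piwi-KD (1.14 to 1.32), 0.694 for H1-KD (0.646 to 0.746) and 0.787 for HP1a-KD (0.735 to 0.842), and the Mael-KD interval, 0.934 to 1.09, held 1. In Piwi-KD DM412 had thus moved further than TABOR in the direction of more RNA and ATAC signal and of less H3K9me3, HP1a and H1. In H1-KD TABOR had moved further in RNA and ATAC, while for H3K9me3 and HP1a the intervals held 1. These knockdowns share their control libraries, so the values are not independent of each other.

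**Figure D4:**
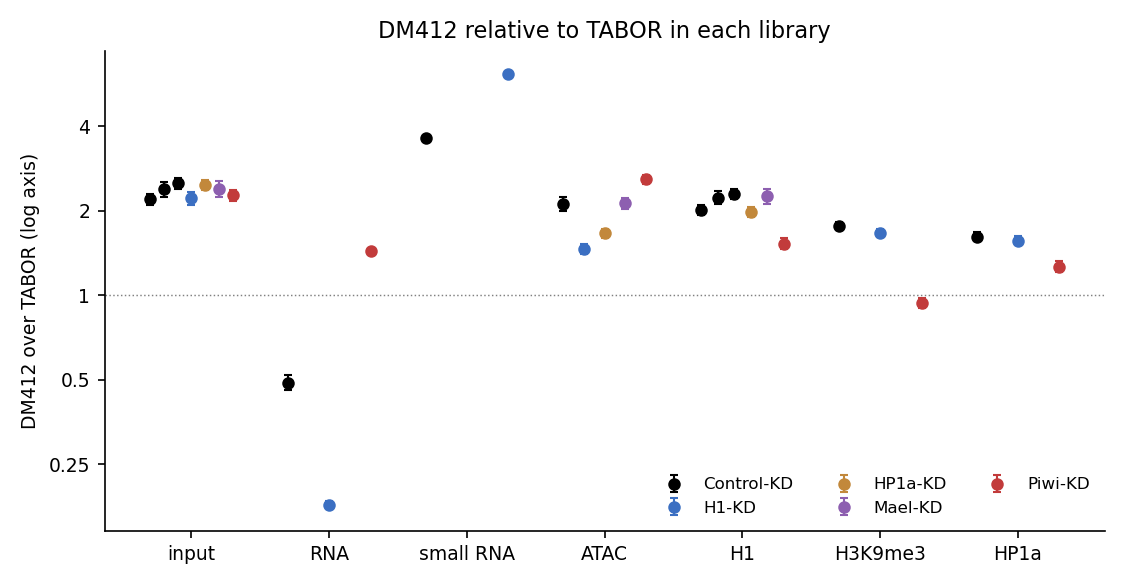
DM412 value over TABOR value in each library on a log2 axis, by measurement and coloured by siRNA target, with 95% counting intervals; ChIP values are not divided by input here. The 7 input libraries lie at 2.20 to 2.50, while RNA spans 0.178 in H1-KD to 1.43 in Piwi-KD.

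The other mdg1-type elements in the tables were MDG1, BLOOD, STALKER2, STALKER3 and STALKER4, and they differed widely among themselves. In Piwi-KD RNA 3 of the 4 that passed the filter were past 2-fold higher, as were 23 of all 96 transposons (24.0%), and STALKER3 did not pass it. The median log2 change of the 4 was 2.68, against 0.11 for all 96. MDG1 was at 5.09 there, STALKER4 at 3.45, STALKER2 at 1.91 and BLOOD at 0.61. In Piwi-KD H3K9me3 the list had 3 of 5 past 1.5-fold lower and 1 past it higher, with MDG1 at -1.63 and STALKER3 at 0.90, where 13.5% of all 96 were past it lower and as many higher. STALKER3 is a short entry of 372 bp, with 83 H3K9me3 ChIP reads in the control and 121 in Piwi-KD. The list's median was -0.95, against 0.32 for all 96. In H1-KD small RNA 4 of the 5 were below control, as were 39 of all 96, with a median of -0.58 against 0.27 for all 96. Among 9 further LTR elements listed as known targets of Piwi, such as GYPSY and DM297, 8 were below control in that measurement, with a median of -0.31. TABOR, at -0.77, was the lowest of all 96, so its place below the median of both lists follows from that rank.

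Over the 14 comparisons of a knockdown with control, the transposons with the most similar profile of log2 changes were sought among 68 others that passed every filter. For DM412 these were GYPSY5 (Pearson r = 0.99), DM176 (0.97) and I (0.95), for DM412B DM176 (0.94), DM412 (0.94) and GYPSY5 (0.94), and for TABOR STALKER4 (0.95), BLASTOPIA (0.94) and MDG1 (0.94). The comparisons share control libraries, and the large RNA changes weigh most. Over the 12 comparisons other than RNA, a choice made after seeing the data, the closest was MDG1 for DM412 (r = 0.93), GYPSY5 for DM412B (0.91) and COPIA for TABOR (0.91). There I stood 17th for DM412 (r = 0.52) and BLASTOPIA 23rd for TABOR (0.39). DM412 and TABOR had r = 0.93 over all 14 comparisons and 0.67 without RNA.

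**Figure D5:**
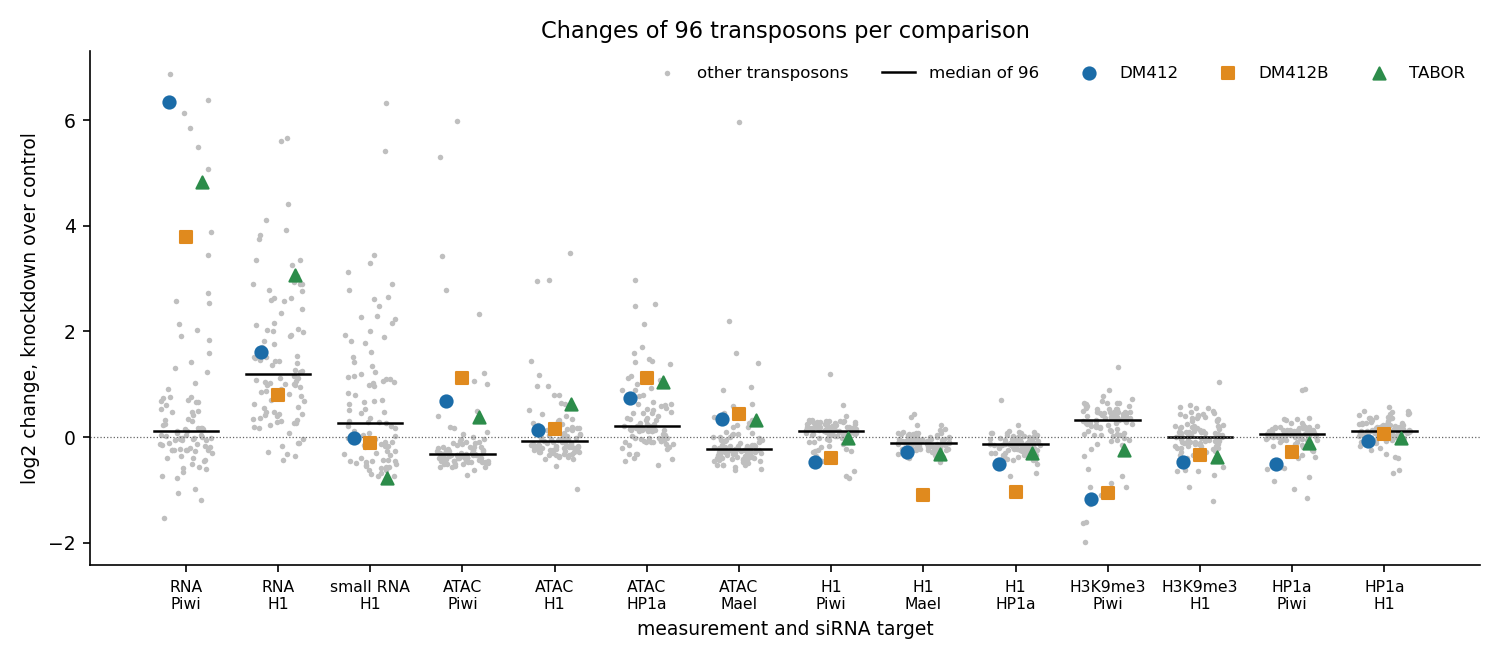
Log2 change of knockdown over control in 14 comparisons for DM412, DM412B and TABOR (coloured symbols), the other transposons that passed the filter (grey points) and the median of 96 (black line), with H1 changes taken against the mean of 3 controls. TABOR is the lowest of all in H1-KD small RNA, and DM412B is the lowest for H1 in Mael-KD and HP1a-KD.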

How the data were processed

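Sample titles gave each sample's assay and siRNA target, and so its group. The authors deposited 11 tables with 29 columns over 129 transposons. The units were read from the values: those the authors deposited for RNA, ATAC, ChIP and input are RPKM, and those deposited for small RNA are RPM. With 1 length per transposon and 1 total per column, 3606 of 3606 nonzero values came out as whole reads within 0.05, and on simulated data 29 of 29 totals were recovered. The submitters' processing notes name TopHat2 2.0.7, Cufflinks 2.1.1 and Bowtie2 2.0.6 for RNA, Bowtie 1.0.1 for the ChIP, Piwi-bound and input libraries, MACS2 for ATAC, and cutadapt and build dm3 for each, without saying which step made these values. The sources used here do not say whether the single ATAC column pools both labelled samples or whether reads were shifted for the transposase.

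Log2 changes used a pseudocount of 0.1 of the median nonzero value of each table (0.553 RPKM for RNA, 8.10 RPM for small RNA, 5.80 RPKM for ATAC, 4.45 to 13.2 RPKM for ChIP and input). Each ChIP value was set over its own input, matched by knockdown and number. H1 changes are against the mean of 3 controls and printed ratios against the control of the same number. The 33 transposons with the lowest mean per measurement were left out. The fold for a count was 2 in RNA of either kind and 1.5 in ATAC and ChIP. Intervals (95%) are Clopper-Pearson for ratios of 2 libraries and normal approximations of the log ratio where ChIP is set over input or 1 element over another, without pseudocount. H1 was tested with limma 3.58.1 in R 4.3.3, Benjamini-Hochberg over 96 transposons, 2 residual degrees of freedom. The prior degrees of freedom were infinite in the fit as reported, so 1 variance pooled over all transposons was used. On simulated data for Mael-KD (96 transposons) limma called 19 of 20 changes of 1 on the log2 scale and 0 of 76 unchanged. The simulated transposons all had the same SD, which the pooled fit assumes, so this check cannot speak for rows with few reads such as DM412B. Nothing says that samples came from separate cultures, so p-values measure the spread between these libraries, pooled over transposons in the fit as reported. The sources used here name no molecular identifiers, and reads copied by PCR are not independent, so intervals cover counting error only.

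The elements, lists and rules for naming (the 3 elements, both lists, and the 3 most similar transposons per element) were chosen with earlier results of these data known.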

Additional observations from a re-analysis of the deposited data

How the results depend on the processing

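Of 195 recomputed log2 changes of the 3 elements, 189 kept their direction. The other 6 were of values not called: relative to the median transposon, DM412B in H1-KD RNA and HP1a; without input, DM412B and TABOR in H1-KD HP1a; over input, DM412B in Mael-KD ATAC; and, without control 1, TABOR in Piwi-KD H1. The Piwi-KD RNA change of DM412B, 3.78, became 4.50 without pseudocount. The number of the 3 elements past the fold became 1 relative to the median transposon for H1-KD RNA (from 2) and for H1-KD small RNA, Mael-KD ATAC and Piwi-KD H1 (each from 0); the median is subtracted there by construction. It also became 2 for HP1a-KD ATAC (from 3, without DM412) and 3 for Piwi-KD ATAC (from 2), and without pseudocount 3 for H1-KD RNA (from 2). Without the filter, transposons past 1.5-fold lower numbered 2 in H1-KD ATAC, 1 in HP1a-KD ATAC and 4 in Mael-KD H1.

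H1 calls by limma over all transposons were 5 in Piwi-KD, 1 in Mael-KD and 4 in HP1a-KD. Without input they were 0 in each (6, 1 and 1 at an unadjusted p under 0.05), and after centring 0 in Mael-KD and in HP1a-KD (8 and 19 unadjusted). In Piwi-KD they were 3 without filter, 2 without pseudocount and 3 with a pseudocount of 1, and in Mael-KD 3 without filter and 0 without pseudocount (7 unadjusted). There DM412B had a limma adjusted p of 0.0543 in Mael-KD. Leaving out each control in turn gave 1 to 10 in Piwi-KD (10 without control 1, 3 without control 2 and 1 without control 3), 1 each time in Mael-KD and 2 to 3 in HP1a-KD (2 without control 1 or control 3); DM412B was called in Mael-KD and HP1a-KD each time. The cause was not tested. No paired analysis was possible because each H1 knockdown shares 1 sample number with the controls and the ATAC columns carry none. DM412B rests on few reads, 11 to 211 in RNA and 29 to 76 in input.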
